A study of Macaca fascicularis and Macaca mulatta with 24 samples.

Results

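The 10 glycolytic enzymes described here are HK1, GPI, PFKM, PFKP, ALDOA, ALDOC, GAPDH, PGK1, ENO1 and ENO2, and they were chosen by name. A gene was taken where a non-control probe of the array carried its exact symbol, as the gene name or in brackets in the probe's description, in any of the array files. All 10 were found, on 11 probes, among 18575 genes on the array. All 10 also passed the filter on dim probes, which left 15929 genes for testing.

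Glycolysis turns glucose into pyruvate in the cytosol and yields ATP without oxygen, so tissue cut off from its blood supply relies on it for the ATP that it can still make. Hexokinase, glucose phosphate isomerase and phosphofructokinase prepare and commit the sugar, aldolase splits it, and the later enzymes recover ATP and NADH. Several steps have isoforms that differ between brain cells: aldolase C is found mainly in astrocytes and enolase 2, the neuron-specific enolase, mainly in neurons.

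The samples are cortex of cynomolgus macaques with an experimental stroke, made by closing the middle cerebral artery of the right side. TatNR2B9c, a cell-permeable peptide built from Tat and the C-terminal residues of the NMDA receptor subunit NR2B, was injected intravenously (2.6 mg/kg) 5 min after the closure, and the other animals received placebo. The 8 groups were TatNR2B9c right (ischemic) and left (non-ischemic) cortex at 6 h and at 1 h, and placebo right and left cortex at 6 h and at 1 h, with 3 animals in each and 1 array per sample. Every animal had the occlusion, so left cortex is the opposite side of an animal with a stroke and not unoperated tissue. Arrays of both sides that carry the same number were taken as the same animal. These are samples of mixed cells, in which fewer cells of a type and less RNA per cell cannot be told apart.

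Each array held the sample RNA in Cy5 and a universal reference RNA in Cy3, and a value below is the log2 ratio of sample over reference for 1 probe after loess normalisation. The arrays were extracted with 3 software versions, matching placebo 1 h, placebo 6 h and TatNR2B9c, and these sets are called campaigns here. No scan day was shared between campaigns. The campaign therefore cannot be told apart from TatNR2B9c against placebo or from 6 h against 1 h under placebo. Placebo 6 h left arrays 1 and 3 were scanned on day 2 and the other placebo 6 h arrays on day 3. TatNR2B9c 6 h arrays 1 and 2 of both sides were scanned on day 5 and the other TatNR2B9c arrays on day 4. In the reference channel, probes well above background made up 49.5% to 99.2% on TatNR2B9c arrays, 82.7% to 91.5% on placebo 6 h arrays and 11.9% to 50.1% on placebo 1 h arrays. The share was lowest on placebo left 1 h arrays 1 and 3 and placebo right 1 h array 3, called weak-reference arrays here. Log2 ratios over all genes had an SD of 0.81 to 1.39 on TatNR2B9c arrays, 1.5 to 1.67 on placebo 6 h arrays and 0.36 to 1.09 on placebo 1 h arrays. Neuron markers, which do not tell cortex from other brain tissue, had a mean log2 ratio above 0 on each of the 24 arrays (12 genes tested, 0.13 to 3.81).

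The probes that carry the results were 60-base oligonucleotides, placed on the rhesus macaque build rheMac2 by the array files. The first 30 bases of 6 of them are shown in the order deposited, both ENO2 probes because they did not give the same values, and GPI because of where it was placed.
ENO2 main probe, chr11:7110035-7110094, plus strand: tgctagaatgggaagggtcataaaaagggc
ENO2 further probe, chr11:7100467-7100526, plus strand: gagacttgcggaggcggctggggtgttcgg
ALDOC, chr16:23768726-23768785, minus strand: tgggctctccttcttgcttgccctgtctcc
GAPDH, chr11:6689563-6689622, plus strand: cccgccacactgaatctcccctcagtttcc
PFKP, chr9:3406080-3406139, plus strand: gtcctgcctgcatgtgcctgcaacctggac
GPI, chr6:64143988-64144047, minus strand: gctgaagtgtttttgtgcagctgacttttc

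The ENO2 probes start 9.57 kb apart on chromosome 11, and the oldest annotation in the files calls the further one B7 gene, whereas the later ones call it ENO2. The GPI probe lies on chromosome 6 in a predicted transcript described as similar to GPI. The oldest annotation puts the GAPDH probe on the X chromosome. Processed copies of GAPDH and other glycolytic genes are common in primate genomes, and a probe can read RNA of a near-identical copy as well. Whether a probe lies in an exon, an intron or an untranslated region was not analysed here. The other members were read at chr9:67623823-67623882 (HK1), chr11:45225317-45225376 (PFKM), chr20:28050746-28050805 (ALDOA), chrX:76838307-76838366 (PGK1) and chr1:11900072-11900131 (ENO1).

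Across the 24 arrays most members had loess log2 ratios above 0. Loess sets 0 on each array by probes of like intensity, so the sign does not give the order of the 2 channels. In placebo left cortex at 1 h, PFKM had a mean ratio of −0.15 with mean log2 signals of 12.54 in Cy5 and 7.14 in Cy3. ENO2 (0.52 to 3.77) and PFKP (0.20 to 1.99) were above 0 on all 24 arrays, HK1 (−0.24 to 2.46) and GPI (−0.12 to 1.60) on 23, and ALDOC (−0.51 to 3.59) and ENO1 (−0.31 to 1.54) on 22. PFKM, the muscle-type phosphofructokinase, was below 0 on 21 arrays (−1.13 to 0.43). PGK1, which makes ATP from 1,3-bisphosphoglycerate, stayed between −0.20 and 0.38. Its probe was dim: it was well above background on 18 of 24 arrays in the sample channel and 13 in the reference channel, and it passed the filter through placebo right 1 h, placebo left 6 h and placebo right 6 h only. The remaining members were well above background in the sample channel on all 24 arrays.

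**Figure D1:**
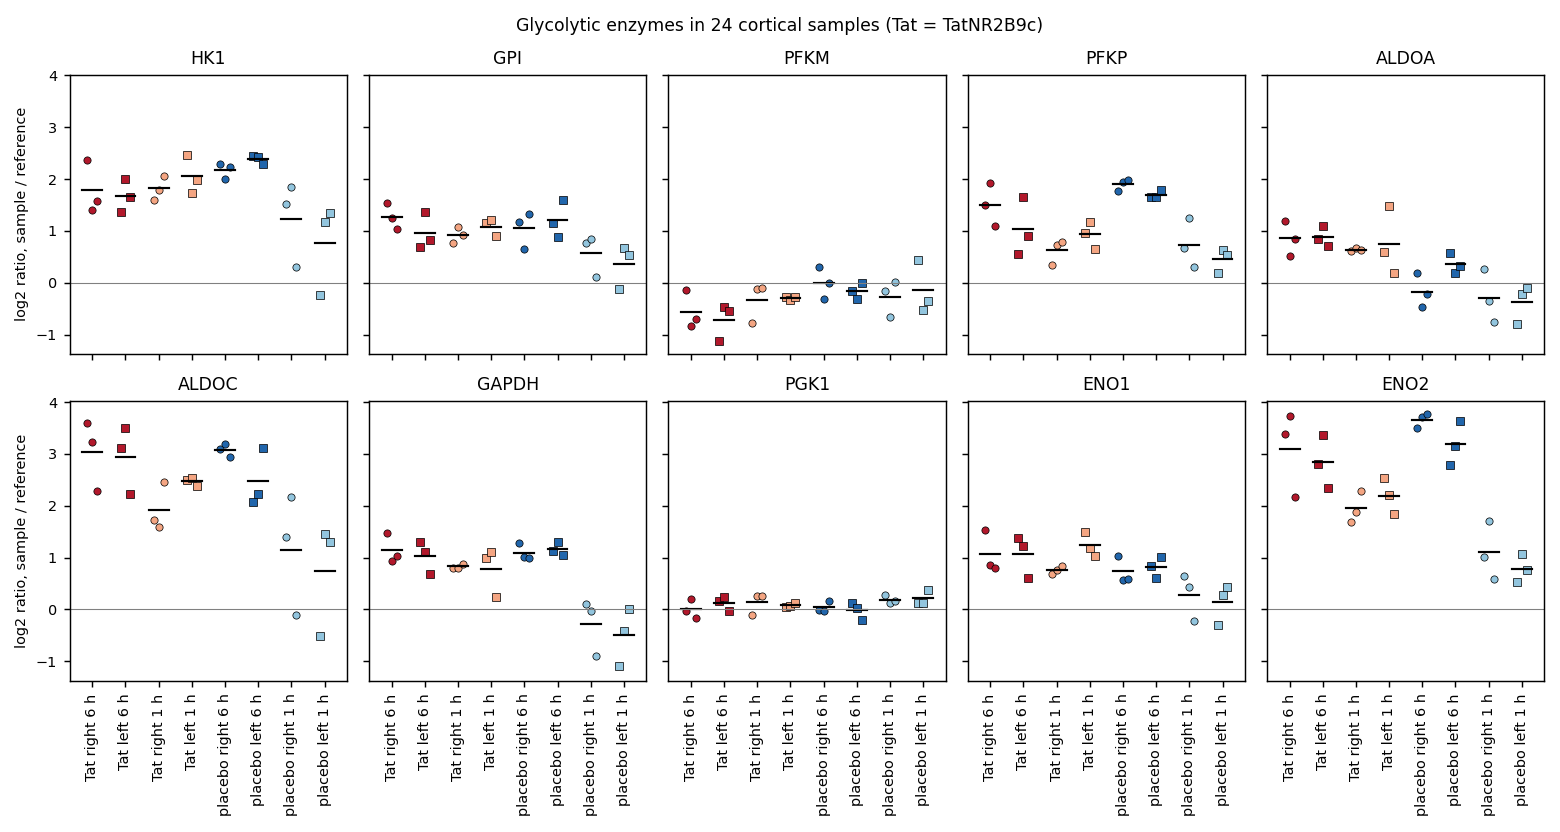
Log2 ratio of sample over reference (vertical axis) for the 10 members (ENO2 by its main probe) in 8 groups, with 1 point per array (circles right, squares left cortex) and a bar at the group mean (n = 3). ENO2 lay between 2.79 and 3.77 in the 6 placebo 6 h samples, above the 0.52 to 1.71 of the 6 placebo 1 h samples, and PGK1 stayed near 0 in all groups.

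In the loess ratios the largest differences of the members lay between 6 h and 1 h in placebo animals. By limma, 4 of the 10 members were higher at 6 h in right cortex (PFKP, ALDOC, GAPDH and ENO2) and 8 in left cortex (HK1, GPI, PFKP, ALDOA, ALDOC, GAPDH, ENO1 and ENO2), but all 12 values were below 0 when each array was centred on its median without loess, and so were PFKP on the right with arrays scaled to equal spread and ALDOC on the left in Cy5 alone. Such differences were common among all genes: 40.9% passed in right cortex (21.5% higher) and 54.1% in left cortex (30.8% higher). The median member differed by 0.71 in right and 1.05 in left cortex, against 0.04 and 0.11 for the median of all genes tested. Under median centring the median of all genes shifted by −0.79 in right and −0.88 in left cortex, 8 members were lower and 0 higher on each side, and 3787 of 11416 passing genes in right and 4155 of 12151 in left cortex were higher, against 3425 of 6510 and 4903 of 8620 in the loess ratios.

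**Figure D2:**
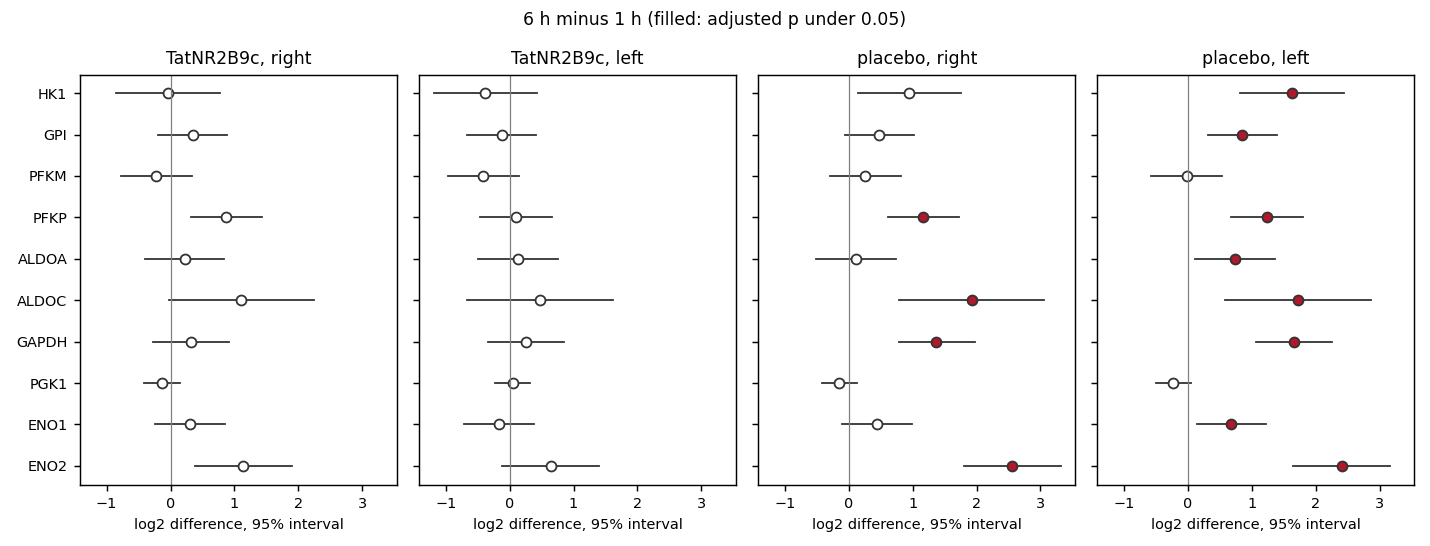
Difference between 6 h and 1 h (horizontal axis, log2, with 95% interval) for each member under TatNR2B9c and placebo, in right and left cortex (n = 3 arrays per group). Filled points passed at an adjusted p under 0.05: none under TatNR2B9c, and 4 in right and 8 in left cortex under placebo.

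ENO2, which turns 2-phosphoglycerate into phosphoenolpyruvate in neurons, had the largest difference of the members. In placebo right cortex it was at 3.5, 3.71 and 3.77 at 6 h, against 1.02, 1.71 and 0.58 at 1 h. In placebo left cortex it was at 2.79, 3.16 and 3.64 at 6 h, against 0.52, 1.07 and 0.75 at 1 h. All 6 samples at 6 h lay above all 6 at 1 h. The difference was 2.56 (SE 0.36, adjusted p = 4.57e-05) on the right and 2.41 (SE 0.36, adjusted p = 3.7e-05) on the left, or 5.90-fold and 5.33-fold. In the sample channel alone (Cy5, quantile normalised) it was smaller but passed, at 1.2 (adjusted p = 0.00206) and 0.80 (adjusted p = 0.0387), and with the arrays scaled to equal spread it was 0.35 and 0.28 and did not pass. It turned to −0.64 on the right and −1.60 on the left under median centring, with adjusted p of 0.454 and 0.0606.

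The further ENO2 probe passed on the left only. It was at 0.02, 0.24 and 0.58 in placebo right cortex at 6 h, against 0.02, 0.21 and −0.34 at 1 h, groups that overlapped. On the left it was at 0.51, 0.56 and 0.92 at 6 h, against −0.06, 0.09 and −1.75 at 1 h. Its difference was 0.32 (SE 0.33, adjusted p = 0.46) on the right and 1.24 (SE 0.33, adjusted p = 0.00442) on the left. The left 1 h value of −1.75 came from a weak-reference array, and that group had an SD of 1.02 (n = 3). No fit without that array is given for this probe. Over the 24 arrays the values of the ENO2 probes correlated at r = 0.64, and at r = 0.38 after the group means were removed, a description of probes that share samples and hybridisations.

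ALDOC, the aldolase that astrocytes use to split fructose 1,6-bisphosphate, was next in size. It was at 3.09, 3.19 and 2.94 in placebo right cortex at 6 h, against 1.39, 2.16 and −0.10 at 1 h. On the left it was at 2.07, 2.23 and 3.12 at 6 h, against −0.51, 1.45 and 1.30 at 1 h. The groups did not overlap on either side, and the lowest 1 h value on each side came from a weak-reference array. The difference was 1.92 (SE 0.54, adjusted p = 0.00854) on the right and 1.73 (SE 0.54, adjusted p = 0.0118) on the left. Without placebo right 1 h array 3 it was 1.30 with adjusted p = 0.0758. On the left it did not pass without placebo left 1 h array 1 (1.1, adjusted p = 0.0944), placebo left 6 h array 3 (1.40, adjusted p = 0.0616) or the 3 weak-reference arrays (1.02, adjusted p = 0.166). Cy5 alone gave 0.49 on the right and −0.08 on the left, and neither passed.

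GAPDH, which makes NADH and 1,3-bisphosphoglycerate, had loess log2 ratios below or near 0 at 1 h and above 0 at 6 h under placebo. Before loess its mean log2 signal in placebo left cortex was higher in Cy5 than in Cy3 at both times (16.36 and 9.90 at 1 h, 17.24 and 15.34 at 6 h). It was at 1.29, 1.01 and 0.99 in placebo right cortex at 6 h, against 0.11, −0.04 and −0.90 at 1 h. On the left it was at 1.14, 1.31 and 1.05 at 6 h, against −1.08, −0.42 and 0.00 at 1 h. The groups did not overlap, with a difference of 1.37 (SE 0.28, adjusted p = 0.001) on the right and 1.67 (SE 0.28, adjusted p = 0.000113) on the left. The sample channel alone gave 1.27 (adjusted p = 0.000156) and 1.16 (adjusted p = 0.000763), and the fit without the weak-reference arrays gave 1.06 (adjusted p = 0.00378) and 1.58 (adjusted p = 0.00307). At equal spread it was 1.36 (adjusted p = 0.396) and 1.90 (adjusted p = 0.143) and passed on neither side. It was −2.78 and −3.46 under median centring.

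PFKP, the platelet-type phosphofructokinase, catalyses the committed step. It was at 1.77, 1.95 and 1.99 in placebo right cortex at 6 h, against 0.67, 1.24 and 0.30 at 1 h. On the left it was at 1.65, 1.66 and 1.78 at 6 h, against 0.20, 0.63 and 0.54 at 1 h. The 6 h samples lay above the 1 h samples on both sides. The difference was 1.16 (SE 0.27, adjusted p = 0.00206) on the right and 1.24 (SE 0.27, adjusted p = 0.000784) on the left. It was 0.33 and 0.15 in the sample channel alone, neither of which passed, and −0.04 on the right at equal spread.

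HK1, the main hexokinase of brain, passed on the left only. It was at 2.45, 2.42 and 2.29 in placebo left cortex at 6 h, against −0.24, 1.18 and 1.34 at 1 h, a difference of 1.63 (SE 0.39, adjusted p = 0.00179). On the right it was at 2.30, 2.00 and 2.23 at 6 h, against 1.51, 1.85 and 0.31 at 1 h, and the difference of 0.95 did not pass (adjusted p = 0.0563) but did without placebo right 1 h array 2 (1.26, adjusted p = 0.021). The groups did not overlap on either side, and no test compared the sides. Cy5 alone gave an HK1 difference of 0.33 on the right and 0.28 on the left, with adjusted p of 0.245 and 0.402.

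The other left-sided differences were smaller. GPI, which makes fructose 6-phosphate, averaged 1.21 ± 0.37 in placebo left cortex at 6 h and 0.36 ± 0.42 at 1 h (SD, n = 3 each; difference 0.85, adjusted p = 0.00943). ALDOA, the widespread aldolase, averaged 0.37 ± 0.19 at 6 h and −0.37 ± 0.38 at 1 h (difference 0.74, adjusted p = 0.0438), and ENO1, the widespread enolase, 0.82 ± 0.20 and 0.14 ± 0.39 (difference 0.68, adjusted p = 0.0339). These 3 values did not pass without placebo left 1 h array 1, and GPI, ALDOA and ENO1 also did not pass without placebo left 6 h array 3 (adjusted p from 0.0591 to 0.109). ALDOA and ENO1 did not pass without placebo left 6 h array 1 either, and ALDOA also not without placebo left 1 h array 2 (adjusted p = 0.0501) or placebo left 6 h array 2 (adjusted p = 0.0528). In the sample channel alone GPI (0.68), ALDOA (0.90) and ENO1 (0.87) passed on the left, and GPI (0.73), ALDOA (0.78), ENO1 (0.80) and PFKM (1.00) on the right. The number of members that passed in left cortex was 4 without placebo left 1 h array 1, 4 without placebo left 6 h array 3 and 4 without the weak-reference arrays.

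PFKM and PGK1 passed on neither side. PFKM averaged −0.01 ± 0.30 in placebo right cortex at 6 h and −0.27 ± 0.34 at 1 h, with a difference of 0.26 (95% interval −0.30 to 0.82). PGK1 averaged 0.04 ± 0.11 at 6 h and 0.19 ± 0.07 at 1 h, with a difference of −0.14 (95% interval −0.42 to 0.13). On the left the differences were −0.02 (−0.57 to 0.54) for PFKM and −0.23 (−0.50 to 0.05) for PGK1. In left cortex 9 members had groups that did not overlap, 8 of them higher and PGK1 lower, and in right cortex 5 did, with the 6 h samples above. Of all genes 63.9% on the left (37.2% above and 26.7% below) and 59.7% on the right (32% above) did so.

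**Figure D3:**
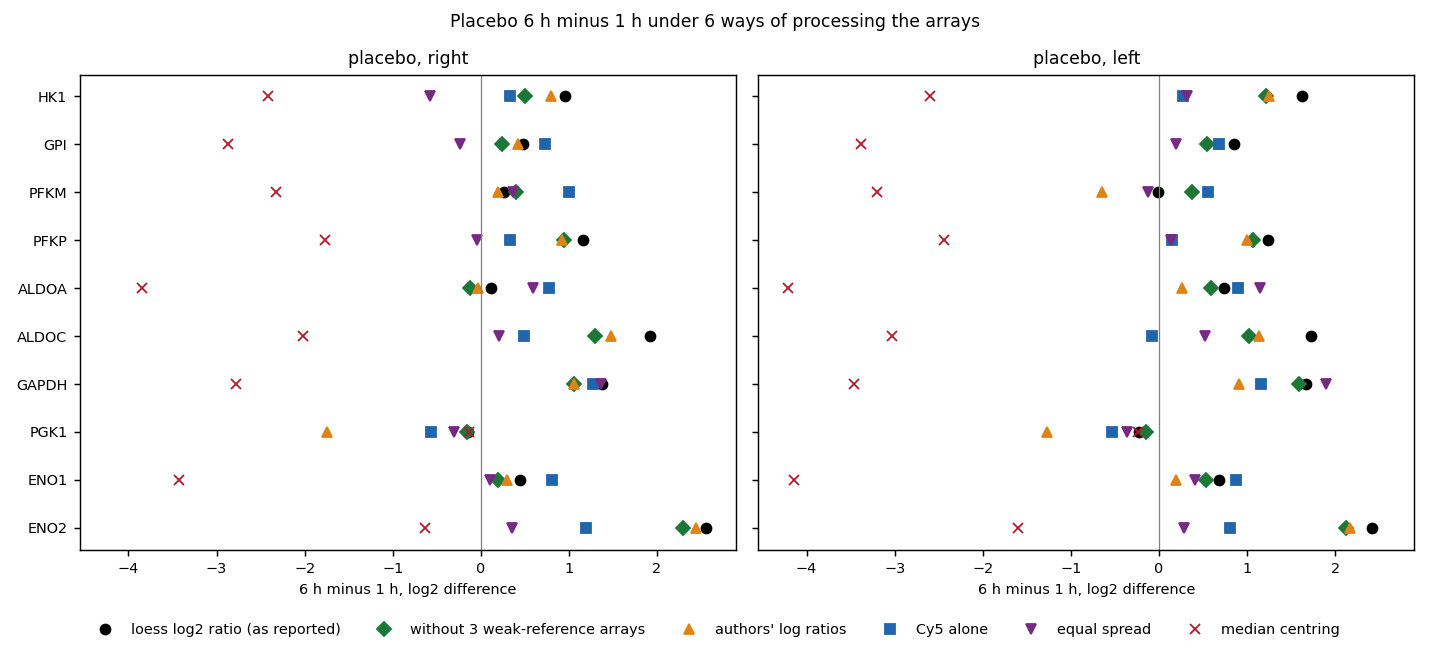
Difference between 6 h and 1 h in placebo animals (horizontal axis, log2) for each member under 6 ways of processing the same arrays, in right and left cortex. Median centring without loess turned the 12 passing values to below 0, while GAPDH stayed between 0.91 and 1.90 in the other 5.

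Other measurements moved with the placebo difference, and their part in it was not tested. Of 12 neuron markers tested, 12 were higher at 6 h on each side, by a median of 2.16 in right and 2.28 in left cortex in the loess ratios, and by −0.91 and −1.45 under median centring, 0.44 and 0.20 in Cy5 alone and 0.09 and 0.55 at equal spread. The mean log2 ratio of that list was 3.33 to 3.81 in placebo right cortex at 6 h, against 0.34 to 2.00 at 1 h, and 3.38 to 3.47 in placebo left cortex at 6 h, against 0.13 to 1.61 at 1 h. In the loess ratios oligodendrocyte markers were higher for 5 of 9 genes on the right and 7 of 9 on the left, and astrocyte markers for 3 of 10 and 4 of 10. In Cy5 alone 0 oligodendrocyte markers were higher (2 lower on the right and 0 on the left), and astrocyte markers were 2 higher and 2 lower on the right and 1 higher and 3 lower on the left. Under median centring 7 astrocyte markers were lower on the right and 9 on the left, and oligodendrocyte markers were 0 higher and 3 lower on the right and 1 higher and 1 lower on the left.

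Red cell markers were lower at 6 h under placebo for 4 of 4 genes on each side, with a median of −1.85 in right and −1.66 in left cortex, and their medians were below 0 in all 4 scalings (loess, median centring, equal spread and Cy5 alone). Their mean log2 ratio was −2.46 to −2.30 in placebo right cortex at 6 h, against −0.40 to −0.02 at 1 h, and −2.41 to −1.17 in placebo left cortex at 6 h, against −0.28 to −0.08 at 1 h. Microglia markers were 0 higher and 3 lower of 7 on the right (1 and 2 in Cy5 alone, 1 and 4 under median centring) and 1 higher and 0 lower on the left, and endothelial markers 0 higher and 1 lower of 7 on each side. The reference channel also differed: the median log2 Cy3 signal of ENO2 was 11.02 over the 6 placebo 6 h arrays, against 8.08 over the 6 placebo 1 h arrays. For GAPDH it was 15.14 at 6 h, against 10.78 at 1 h, while the median Cy5 signal was 17.01 at 6 h, against 16.16 at 1 h.

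Under TatNR2B9c, no member passed between 6 h and 1 h on either side, and 0% of all genes did (0 of 15928 genes, with 3083 in right and 2563 in left cortex at an unadjusted p under 0.05). The median member differed by 0.31 in right and 0.08 in left cortex, against 0.04 and −0.01 for all genes. In right cortex PFKP (0.87, 95% interval 0.32 to 1.43, adjusted p = 0.109) and ENO2 (1.14, 0.38 to 1.90, adjusted p = 0.115) were the members with an unadjusted p under 0.05. PFKP and GAPDH had groups that did not overlap in right cortex, both with the 6 h samples above, against 27.9% of all genes either way and 17.1% in that direction. On the left PFKM did, with the 6 h samples below, against 17.5% and 10.3%. No test set the time difference under TatNR2B9c against that under placebo.

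ENO2 was at 3.38, 3.73 and 2.16 in TatNR2B9c right cortex at 6 h, against 1.69, 1.87 and 2.29 at 1 h. On the left it was at 2.81, 3.36 and 2.35 at 6 h, against 2.54, 2.22 and 1.84 at 1 h. The groups overlapped on both sides, with the lowest 6 h value from animal 3 each time. The 6 h arrays of animal 3 were on a slide with 1 h arrays, and within that slide the difference was −0.13 on the right and 0.51 on the left. With slide as a block ENO2 differed by 0.44 on the right (adjusted p = 0.94), and without right 6 h array 3 by 1.60 (adjusted p = 0.0465). Cy5 alone gave 0.02 and 0.08.

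ALDOC was at 3.59, 3.23 and 2.28 in TatNR2B9c right cortex at 6 h, against 1.72, 1.60 and 2.46 at 1 h, and at 3.12, 3.5 and 2.23 in left cortex at 6 h, against 2.49, 2.53 and 2.39 at 1 h. Here too animal 3 was lowest at 6 h and the groups overlapped. GAPDH was at 1.47, 0.93 and 1.03 in TatNR2B9c right cortex at 6 h, against 0.80, 0.81 and 0.88 at 1 h, and at 1.31, 1.12 and 0.68 in left cortex at 6 h, against 1.00, 1.1 and 0.24 at 1 h. PFKP was at 1.49, 1.92 and 1.09 in right cortex at 6 h, against 0.35, 0.73 and 0.79 at 1 h, and at 0.56, 1.65 and 0.90 in left cortex at 6 h, against 0.97, 1.18 and 0.66 at 1 h. The 6 h and 1 h groups of GAPDH and PFKP overlapped in left but not in right cortex.

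HK1, PFKM, ENO1 and GPI did not pass under TatNR2B9c either. HK1 averaged 1.78 ± 0.51 in right cortex at 6 h and 1.82 ± 0.23 at 1 h (SD, n = 3 each), a difference of −0.04 with a 95% interval of −0.85 to 0.77. PFKM averaged −0.71 ± 0.37 in left cortex at 6 h and −0.30 ± 0.04 at 1 h, a difference of −0.42 (−0.97 to 0.14, unadjusted p = 0.135 by limma). ENO1 differed by 0.31 on the right (−0.24 to 0.85) and −0.16 on the left (−0.71 to 0.38), and GPI by 0.35 (−0.19 to 0.89) and −0.13 (−0.66 to 0.41). The further ENO2 probe stayed between −0.17 and 0.68 on the 12 TatNR2B9c arrays.

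TatNR2B9c was then set against placebo at each time and side; the 1 h comparisons use the same placebo arrays as the time differences above. In left cortex at 1 h GAPDH alone passed, at 2.43-fold (0.78 ± 0.47 under TatNR2B9c and −0.50 ± 0.55 under placebo, SD, n = 3 each; log2 difference 1.28, SE 0.28, adjusted p = 0.0372), and it was −4.51 under median centring, where the median of all genes shifted by −0.97. Of all genes 0.891% passed there, 0.854% higher. Its call was lost without the weak-reference arrays (1.2, adjusted p = 0.184), in the fit of the 2 groups alone (adjusted p = 0.399), with scan day as a block (adjusted p = 0.0805), and without placebo left 1 h array 1 or 2 or TatNR2B9c left 1 h array 1 or 2 (0.99 to 1.32, adjusted p from 0.0513 to 0.228). Cy5 alone gave 1.03 (adjusted p = 0.00099).

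The median member in left cortex at 1 h differed by 1.11, against 0.02 for all genes. Of the 10 members 7 had an unadjusted p under 0.05, against 1634 of all 15929 genes. ENO1 (1.1, adjusted p = 0.0511), ENO2 (1.42, adjusted p = 0.077), ALDOA (1.13, adjusted p = 0.0885), HK1 (1.30, adjusted p = 0.137) and ALDOC (1.72, adjusted p = 0.165) did not pass. In 8 members every TatNR2B9c sample lay above every placebo sample and in PGK1 below, against 17.3% of all genes either way (10.8% above and 6.48% below). The sample channel alone called 4 members higher (GPI, ALDOA, GAPDH and ENO1), equal spread 5, and median centring 9 lower. Over the alternative settings 0 to 12283 of all genes passed, against 142 in the loess ratios. Neuron markers were above 0 for 12 of 12 genes there, with a median of 1.30 (−3.06 under median centring and −0.01 in Cy5 alone), and MAP2 (2.19) and NEFL (1.61) passed; the mean log2 ratio of the list was 1.89 to 2.45 under TatNR2B9c, against 0.13 to 1.61 under placebo, and its part in the result was not tested.

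**Figure D4:**
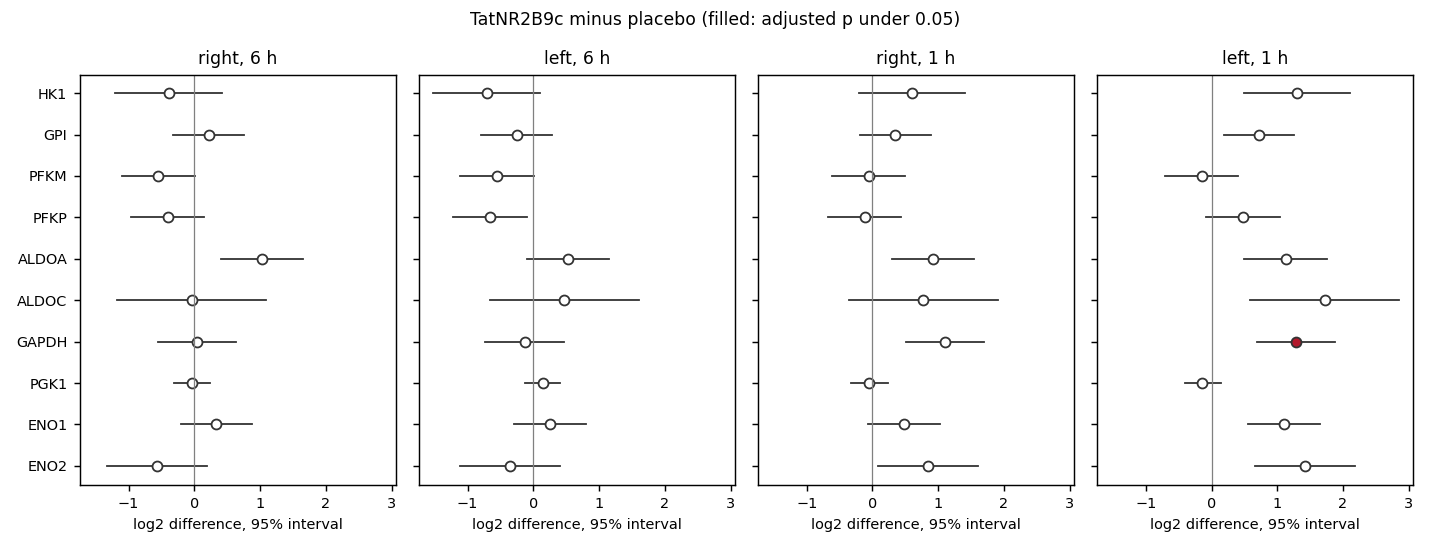
Difference between TatNR2B9c and placebo (horizontal axis, log2, with 95% interval) for each member in right and left cortex at 6 h and 1 h (n = 3 arrays per group). GAPDH in left cortex at 1 h is the only filled point (adjusted p under 0.05), and ALDOA lay above 0 in all 4 comparisons (0.52 to 1.13).

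In right cortex at 1 h 0 members passed, against 1.56% of all genes. An unadjusted p under 0.05 was found for 3 of 10 members, against 2195 of all 15929 genes. GAPDH came closest, at 0.80, 0.81 and 0.88 under TatNR2B9c, against 0.11, −0.04 and −0.90 under placebo (difference 1.1, 95% interval 0.51 to 1.70, adjusted p = 0.0592). The median member differed by 0.53, against 0.02 for all genes. In the sample channel alone 5 members were higher (GPI, ALDOA, GAPDH, ENO1 and ENO2), whereas under median centring 9 were lower. Over the alternative settings 16 to 10684 of all genes passed here, against 249 in the loess ratios. GAPDH, ALDOA and ENO1 had groups that did not overlap, with TatNR2B9c above, against 26.3% of all genes either way and 12.4% in that direction.

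At 6 h no member passed between the treatments. That was so in right cortex, where 4.24% of all genes passed, and in left cortex, where 24.3% did, and the median member differed by −0.04 and −0.19. ENO2 averaged 3.09 ± 0.82 in right cortex under TatNR2B9c and 3.66 ± 0.14 under placebo (difference −0.57, 95% interval −1.33 to 0.19). PFKM averaged −0.71 ± 0.37 in left cortex under TatNR2B9c and −0.16 ± 0.16 under placebo (difference −0.55, −1.11 to 0.01, adjusted p = 0.139). PFKP in left cortex had the smallest adjusted p of the members there (difference −0.66, adjusted p = 0.0771), and it passed without TatNR2B9c left 6 h array 2 (−0.97, adjusted p = 0.00759). In left cortex the TatNR2B9c samples of HK1, PFKM and PFKP lay below the placebo samples and those of ALDOA above, against 33.5% of all genes without overlap (18.1% below and 15.5% above). For PFKP the groups nearly touched, with the highest TatNR2B9c value at 1.653 and the lowest placebo value at 1.654. In right cortex ALDOA alone was separate, against 30.2% (18.4% above). Red cell markers were higher under TatNR2B9c at 6 h for 4 of 4 genes on each side (median 1.61 in right and 1.54 in left cortex, in the loess ratios), and their part in these values was not tested.

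ALDOA was the member with separate groups in all 4 treatment comparisons. In each of them 17.3% to 33.5% of all genes were separate, and the share separate in all 4 was not counted. All 4 set the TatNR2B9c campaign against a placebo campaign, so treatment and campaign cannot be told apart in any of them. In right cortex at 6 h it was at 1.2, 0.52 and 0.85 under TatNR2B9c, against 0.19, −0.48 and −0.22 under placebo. In left cortex at 6 h it was at 0.85, 1.1 and 0.72 under TatNR2B9c, against 0.57, 0.19 and 0.33 under placebo. The difference was 1.03 on the right (adjusted p = 0.0578) and 0.52 on the left (adjusted p = 0.213). At 1 h it was at 0.62, 0.67 and 0.63 in right cortex under TatNR2B9c, against 0.27, −0.36 and −0.76 under placebo, and at 0.60, 1.48 and 0.18 in left cortex under TatNR2B9c, against −0.80, −0.22 and −0.09 under placebo. In the sample channel alone ALDOA passed in all 4, with differences of 0.86 (right 6 h), 0.56 (left 6 h), 1.58 (right 1 h) and 1.25 (left 1 h), but median centring gave −0.55, −1.25, −3.45 and −4.42.

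Ischemic right cortex was compared with left cortex, a comparison that, like 6 h against 1 h under TatNR2B9c, lay within campaigns. Neither lay fully within scan days or slides. At placebo 6 h all right arrays were scanned on day 3 and left arrays 1 and 3 on day 2. Under TatNR2B9c the 1 h arrays were scanned on day 4 and 6 h arrays 1 and 2 of each side on day 5. No member passed in any of the 4 groups of animals or in the pooled fit, and 0% of all genes did, with 212 to 716 genes and 0 members at an unadjusted p under 0.05. The median member differed by 0.11 under TatNR2B9c at 6 h, −0.20 under TatNR2B9c at 1 h, 0.00 under placebo at 6 h and 0.22 under placebo at 1 h. Pooled over the 4 groups the differences ran from −0.15 for ALDOA to 0.20 for ENO2, and their 95% intervals lay within −0.46 and 0.70. With the animal as a block 0 members passed.

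**Figure D5:**
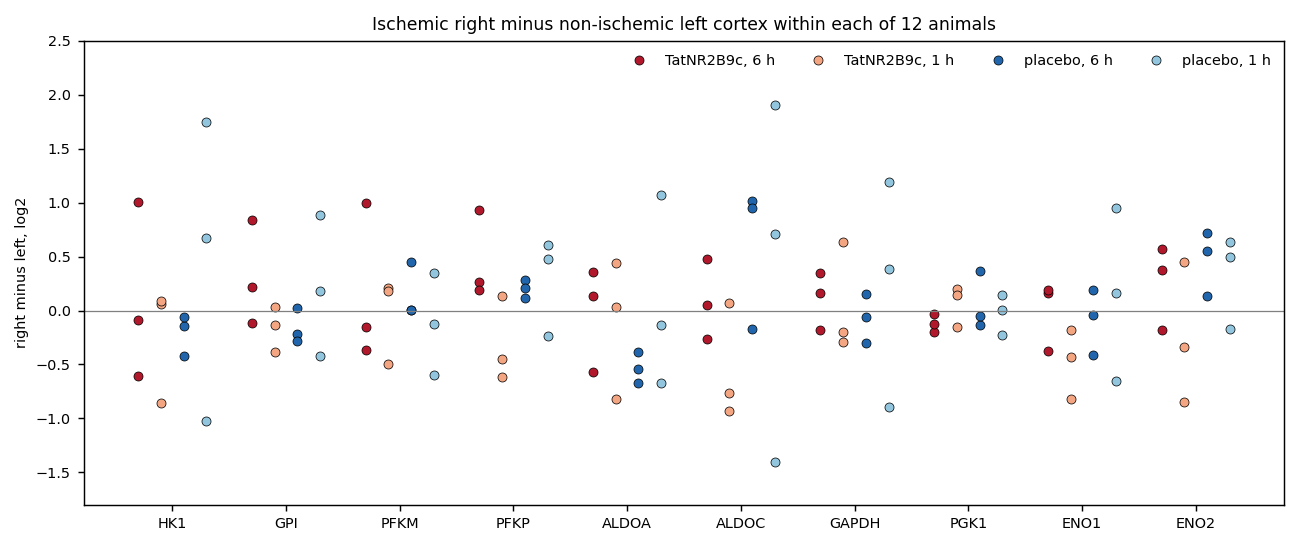
Difference between right and left cortex (vertical axis, log2) within each of 12 animals for the 10 members, coloured by treatment and time (3 animals each). Sides were paired by title number. The differences lay on both sides of 0 for each member, widest for ALDOC (−1.41 to 1.91), and PFKP was above 0 in 9 of 12 animals.

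The sign of the difference varied between animals. The median member was at 0.52, −0.22 and 0.09 in TatNR2B9c animals 1, 2 and 3 at 6 h, and at −0.56, −0.32 and 0.14 at 1 h. In placebo animals it was at 0.13, −0.04 and −0.06 at 6 h, and at 0.92, 0.28 and −0.54 at 1 h. Placebo animals 1 and 3 at 1 h, the widest pair, hold the weak-reference arrays. ENO2 lay above 0 in 8 of 12 animals, at 0.71, 0.55 and 0.13 in the 3 placebo animals at 6 h. ALDOA lay below 0 in those 3 animals, at −0.39, −0.67 and −0.55, with groups that did not overlap, and its adjusted p was 1. These placebo 6 h groups nearly touched, with the highest right value of ALDOA at 0.187 and the lowest left value at 0.192. Of all genes 12.8% had separate groups there, 8.36% with right below left. The share was 19.9% under TatNR2B9c at 1 h (12.3% with right below), where 1 member was separate, and 2.33% under TatNR2B9c at 6 h and 3.66% under placebo at 1 h, where 0 were. The effect of TatNR2B9c on the right-left difference passed for 0 members and 0% of all genes at either time, with a median member of 0.13 at 6 h and −0.47 at 1 h.

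On the 1 placebo slide with both sides at 6 h, from different animals, the median member differed between right and left by 0.21, and on the TatNR2B9c slide with animals 1 and 2 at 6 h by 0.15. ALDOA differed by 0 on that placebo slide, and by −0.36 on the scan day that held all 3 placebo right arrays and 1 left array at 6 h.

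Other genes of sugar metabolism were read from lists of enzymes and transporters, and many of their directions depended on the scaling. Of 18 other glycolysis genes tested, 3 were higher and 9 lower at 6 h in placebo right cortex and 2 higher and 8 lower in left cortex, against 2 and 11, and 3 and 11, under median centring, 3 and 1, and 4 and 0, in Cy5 alone, and 0 and 0, and 1 and 1, at equal spread. HK2, the inducible hexokinase (−1.55, adjusted p = 0.00103), PGK2, a testis isoform (−3.03), and BPGM, which makes 2,3-bisphosphoglycerate (−0.65 on the right and −0.74 on the left), were lower, and on the right they were below 0 in all 4 scalings, but on the left HK2 (−1.37) and PGK2 (−2.76) were above 0 in Cy5 alone. GAPDHS of testis (−3.26 on the right and −2.75 on the left), PGAM2 of muscle (−3.01 and −2.28), PKLR of liver and red cells (−1.53 and −0.95) and PFKFB1 (−2.23 and −1.63), which sets the level of fructose 2,6-bisphosphate, were lower in the loess ratios but above 0 in Cy5 alone. So were PFKFB4 (−0.92 and −0.94) on both sides and PFKFB2 (−0.31) on the right. PFKFB1 on both sides and PGAM2 on the left were also above 0 at equal spread. PFKFB4 on the left and PFKFB2 on the right were also above 0 under median centring.

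Among the genes of this list that were higher were TPI1 and PKM2. TPI1, which interconverts the triose phosphates, averaged 0.97 ± 0.30 at 6 h and 0.13 ± 0.49 at 1 h in placebo right cortex (difference 0.84, adjusted p = 0.00823) and 1.13 ± 0.03 and 0.07 ± 0.14 in left cortex (difference 1.07, adjusted p = 0.000949). PKM2, the pyruvate kinase entry, differed by 0.59 (adjusted p = 0.0472) on the right and 0.47 (adjusted p = 0.0943) on the left. TPI1 and PKM2 were above 0 in Cy5 alone and at equal spread on both sides and below 0 under median centring. PGAM1, the brain phosphoglycerate mutase, differed by 0.35 (adjusted p = 0.262) and 0.06 (adjusted p = 0.852), and HK3 by −0.34 and −0.23, neither passing.

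LDHA and LDHB, the subunits of lactate dehydrogenase in most tissues, did not pass. LDHA, the subunit of anaerobic tissue, averaged −2.37 ± 0.41 in placebo right cortex at 6 h and −1.75 ± 0.35 at 1 h (difference −0.62, adjusted p = 0.399), and LDHB 1.17 ± 0.34 and 0.83 ± 0.77 (difference 0.34, adjusted p = 0.429). On the left LDHA differed by −0.78 (adjusted p = 0.253) and LDHB by 0.42 (adjusted p = 0.296). LDHD differed by −0.94 and −0.73 and passed on neither side. Of 12 lactate and pyruvate genes, 0 were higher and 3 lower on the right and 1 higher and 3 lower on the left, against 2 and 10 on each side under median centring, 1 and 2, and 0 and 2, in Cy5 alone, and 0 and 1 on each side at equal spread. PDK4, which restrains pyruvate dehydrogenase, was lower on both sides (−2.32 on the right and −3.07 on the left) and below 0 in all 4 scalings. The testis subunit LDHC (−2.30 and −2.78) and the lactate carrier SLC16A1 (−0.89 and −1.27) were also lower, but LDHC was above 0 at equal spread on the right and in Cy5 alone on the left, and SLC16A1 in Cy5 alone on both sides. SLC16A7, a monocarboxylate carrier of neurons, was higher on the left by 0.56 and above 0 in all 4 scalings there.

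Of 13 glucose transport and glycogen genes, 5 were higher and 5 lower at 6 h in placebo right cortex, and 5 higher and 6 lower in left cortex. Under median centring these counts were 1 and 8, and 1 and 7, in Cy5 alone 2 and 2, and 1 and 3, and at equal spread 0 and 0 on both sides. SLC2A3, the neuronal glucose transporter (1.42 on the right and 1.12 on the left), SLC2A8, another glucose transporter (0.86 and 1.42), and the inositol carrier SLC2A13 (1.44 and 1.46) were higher and above 0 in all 4 scalings. SLC2A1, the glucose transporter of brain endothelium (0.90 and 1.25), and PYGB, the brain glycogen phosphorylase (0.85 and 1.29), were higher in the loess ratios but below 0 under median centring, and also below 0 were SLC2A1 in Cy5 alone and PYGB at equal spread on the right and in Cy5 alone on the left. PGM2 (−1.32 and −1.34) was lower and below 0 in all 4. SLC2A4 (−2.0 and −1.70), the insulin-regulated transporter, the muscle phosphorylase PYGM (−1.2 and −1.01) and GYS1, the muscle glycogen synthase (−0.45 and −0.63), were lower but above 0 in Cy5 alone. On both sides PYGM was also above 0 at equal spread and GYS1 under median centring. The liver phosphorylase PYGL (−2.10 and −2.26) was lower but above 0 at equal spread, and on the left also in Cy5 alone. RPE, 1 of 7 pentose phosphate genes and an epimerase of that pathway, was lower on the left (−0.70) and below 0 in all 4. Under TatNR2B9c none of these lists had a gene that passed between 6 h and 1 h.

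Between the treatments the following genes were read in the loess ratios alone. PDK4 was lower under TatNR2B9c in right cortex at 1 h (−1.58, adjusted p = 0.0345) and higher in left cortex at 6 h (1.38, adjusted p = 0.0121). In left cortex at 6 h GAPDHS (1.22), PFKFB4 (0.46), LDHC (2.16), SLC2A4 (1.27) and GYS1 (0.34) were higher under TatNR2B9c, and SLC2A1 (−0.61) and SLC2A8 (−1.35) were lower. In the loess ratios no gene of these lists passed in right cortex at 6 h or in left cortex at 1 h. In left cortex at 1 h, Cy5 alone called 5 higher and 0 lower of the 18 other glycolysis genes, 1 higher and 2 lower of the lactate and pyruvate genes and 1 higher and 3 lower of the transport and glycogen genes. Median centring called 3 higher and 10 lower, 1 higher and 8 lower, and 2 higher and 9 lower of the same lists, and the authors' log ratios 0 and 3, 0 and 2, and 1 and 1.

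The members' levels varied together to different degrees. Over the 24 arrays, which share a reference and 3 campaigns, the 45 pairs had Pearson r from −0.38 to 0.89, with a median of 0.62, and from −0.36 to 0.84 with a median of 0.42 after the group means were removed. PFKP and ENO2 (r = 0.89, 0.80 within groups) and ALDOC and ENO2 (0.89, 0.78 within groups) were the closest, and PFKM and ALDOA (−0.38, 0.03 within groups) the farthest. Among 13791 named genes, the 5 whose log2 ratios were most like the members' mean over the 24 arrays included CPLX2 (r = 0.975), AP2M1 (0.962), EPB41L1 (0.96) and FAIM2 (0.958).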

How the data were processed

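The study measured RNA of 24 cortical samples on 2-colour Agilent arrays of 1 design. Intensities were deposited unnormalised: for both channels, a spot's mean and the median of the background around it, per the file headers. The authors' Agilent extraction software was version 10.7.3.1 for TatNR2B9c, 10.5.1.1 for placebo at 6 h and 9.5.3.1 for placebo at 1 h, per the file headers. A spot's deposited log10 ratio sets processed Cy5 over processed Cy3 signal, per the file headers. Deposited series-matrix values are these log10 ratios within 0.005, with no further centring, and its column medians lay between 0 and 0.175. The deposited flags (other values, 0 or 1) mark spots well above background, saturated or not uniform, per the file headers.

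Background was corrected with limma's normexp (offset 50), and loess was then run on the log2 ratios of each array, with control spots at weight 0. Spots not uniform were left out and the 2 spots of most probes averaged. Probes stayed in where a group existed whose arrays all had at least a share of 0.5 of the probe's spots well above background in Cy5 (17226 of 20217 probes). The probe with the highest mean intensity read a gene. Genes carry the names in the array files, with no genome to update them. Tests were two-sided, by lmFit and eBayes of limma 3.58.1 (R 4.3.3) on all 24 arrays with 1 mean per group, with Benjamini-Hochberg adjustment over all genes of each of 15 comparisons, and an adjusted p under 0.05 passed. Intervals are 95%. The procedure was tested on simulated data. Arrays carry no read depth, so the number of arrays limits the precision.

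The members, the lists and the alternatives were chosen with earlier results of these data known. Genes outside the members were named where they passed in a comparison or belong to the hexokinase, triose phosphate isomerase, phosphoglycerate mutase, pyruvate kinase or lactate dehydrogenase families, as were the 5 genes most like the members by correlation. Some of these genes are not reported here. Right and left arrays share title numbers within a treatment and time, read as 1 animal. The deviations of same-numbered arrays correlated at −0.71 to 0.69, above 0.1 in 6 of 12 pairs. Of the 12 right arrays, 5 correlated best with the left array of their own number, so these values do not establish the pairing. Plots were drawn with matplotlib 3.10.9.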

Additional observations from a re-analysis of the deposited data

How the results depend on the processing

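The 13 member values that passed kept their direction with no background subtraction, in the authors' log ratios and without the weak-reference arrays. They also kept it without the filter on dim probes, in fits of only the groups compared and with each kept probe tested on its own. Those fits use the same group means, so the direction could not change there. With a block for slide or for scan day the direction was kept as well. For these comparisons the blocks were random terms (correlations 0.027 and 0.084), which do not remove a difference between campaigns. The member values turned under median centring in all 13 cases, and in 1 case each at equal spread (PFKP, right placebo 6 h minus 1 h, −0.045) and in Cy5 alone (ALDOC, left placebo, −0.076). Under median centring GAPDH was at −4.51 between TatNR2B9c and placebo in left cortex at 1 h. Between 6 h and 1 h in placebo right cortex PFKP was at −1.77, ALDOC at −2.02, GAPDH at −2.78 and ENO2 at −0.64, and in left cortex HK1 at −2.60, GPI at −3.38, PFKP at −2.44, ALDOA at −4.21, ALDOC at −3.03, GAPDH at −3.46, ENO1 at −4.15 and ENO2 at −1.60. The members passing between TatNR2B9c and placebo in left cortex at 1 h (1 as reported) numbered 2 without background subtraction, 9 under median centring (all lower), 5 at equal spread, 4 in Cy5 alone, and 0 once the weak-reference arrays were dropped, with only the groups compared and with scan day as a block. In right cortex at 1 h they numbered 9 under median centring and 5 in Cy5 alone, and at 6 h 2 in Cy5 alone on each side. Between 6 h and 1 h in placebo right cortex (4 as reported) they numbered 8 under median centring (lower) and 0 at equal spread. In placebo left cortex (8 as reported) they numbered 8 under median centring (lower), 4 in the authors' log ratios, 1 at equal spread (PGK1, lower, with 0 higher), 5 in Cy5 alone, 4 once the weak-reference arrays were dropped and 5 with only the groups compared. Leaving out 1 array at a time gave 0 to 2 for TatNR2B9c against placebo in left cortex at 1 h, 0 to 1 in left cortex at 6 h, 3 to 5 and 4 to 8 for 6 h against 1 h in placebo right and left cortex, 0 to 1 in TatNR2B9c right cortex, and 0 elsewhere. The replicate block, with the animal as a term, left 0 members passing between right and left cortex in each group. Over all genes the count passing ranged over settings from 1011 to 11416 (6510 as reported) and from 2061 to 12151 (8620) for 6 h against 1 h in placebo right and left cortex. Between treatments it ranged from 16 to 10684 (249) in right and 0 to 12283 (142) in left cortex at 1 h, and from 4 to 1277 (676) and 3 to 5571 (3876) at 6 h. It ranged from 0 to 306 and 0 to 766 (0 each) for time under TatNR2B9c, from 0 to 3 (0) for right against left under placebo at 6 h, and from 0 to 21 (0) for the treatment effect on that difference at 6 h. The cause of these changes was not tested. Signal limits PGK1, whose probe was dim.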
